A study of Homo sapiens with 6 samples.

Results

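The sirtuin genes SIRT1 to SIRT7 were examined in HEK293T cells, a line from human embryonic kidney into which the SV40 large T antigen was brought. The members were taken by symbol, 7 of the 47470 genes in the deposited count files, and all 7 passed the filter on low counts. RNA was sequenced from untreated wild-type cells and from cells kept for 1 day in 1 mM valproic acid (VPA), with 3 libraries per condition and 6 in all. The line is 1 cell line in culture, and the labels do not say that the replicates came from separate cultures, so that the p-values measure the spread between these libraries. Counts on genes ranged from 18622267 to 18828495 per library. CDKN1A, a cell cycle inhibitor that rises in many cells under inhibitors of histone deacetylases, rose in VPA-treated cells by 0.66 on the log2 scale (adjusted p = 3.33e-07, edgeR). All 9 markers chosen for the HEK293 line were counted, among them PAX2, VIM and NEFM, and their sums were 19020 to 19414 normalized counts in untreated and 21775 to 23068 in VPA-treated libraries. The part of this shift in the values below was not tested. In bulk RNA fewer cells of a type and less RNA per cell cannot be told apart. The 7 markers of blood, endothelial and liver cells together had 78 counts over the 6 libraries, with sums of 5.18 to 12.6 normalized counts in untreated and 7.66 to 20.2 in VPA-treated libraries.

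Sirtuins remove acetyl and other acyl groups from lysines, and some transfer ADP-ribose. They use NAD as a co-substrate, whereas the other histone deacetylases, which VPA inhibits in part, use zinc. SIRT1, SIRT6 and SIRT7 act mainly in the nucleus, SIRT2 mainly in the cytosol, and SIRT3, SIRT4 and SIRT5 in mitochondria. The comparison asked which of these genes had another RNA level after VPA treatment. Each log2 fold change below is that of VPA-treated over untreated cells. Normalized counts are counts scaled by TMM, a method that sets the typical gene to no change, to the mean library size. Adjusted p-values are from edgeR's quasi-likelihood test with Benjamini-Hochberg adjustment over the 15298 genes tested.

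Transcripts of SIRT1, SIRT5 and SIRT7 fell in VPA-treated cells, by less than the study's fold change threshold, while SIRT2, SIRT3, SIRT4 and SIRT6 did not pass the test. The decreases held with TMM and with upper quartile scaling, but SIRT5 did not pass with library totals and none of the 3 passed when the libraries were scaled to ribosomal protein genes. No sirtuin gene passed the pair of limits the study set, a log2 fold change no smaller than 1 in size together with adjusted p below 0.05, which 12.0% of all tested genes passed upwards and 0.503% downwards. At the adjusted p alone 3 of the 7 were lower and 0 higher, where 30.0% of all tested genes were lower, 32.9% higher and 62.9% either. The median log2 fold change was 0.091 over the 7 genes and 0.0058 over all tested genes. In 4 of the 7 genes the normalized counts of the groups did not overlap, 3 of them lower and 1 higher in VPA-treated cells. Over all tested genes this was so for 65.8%, with 31.0% lower and 34.8% higher.

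**Figure D1:**
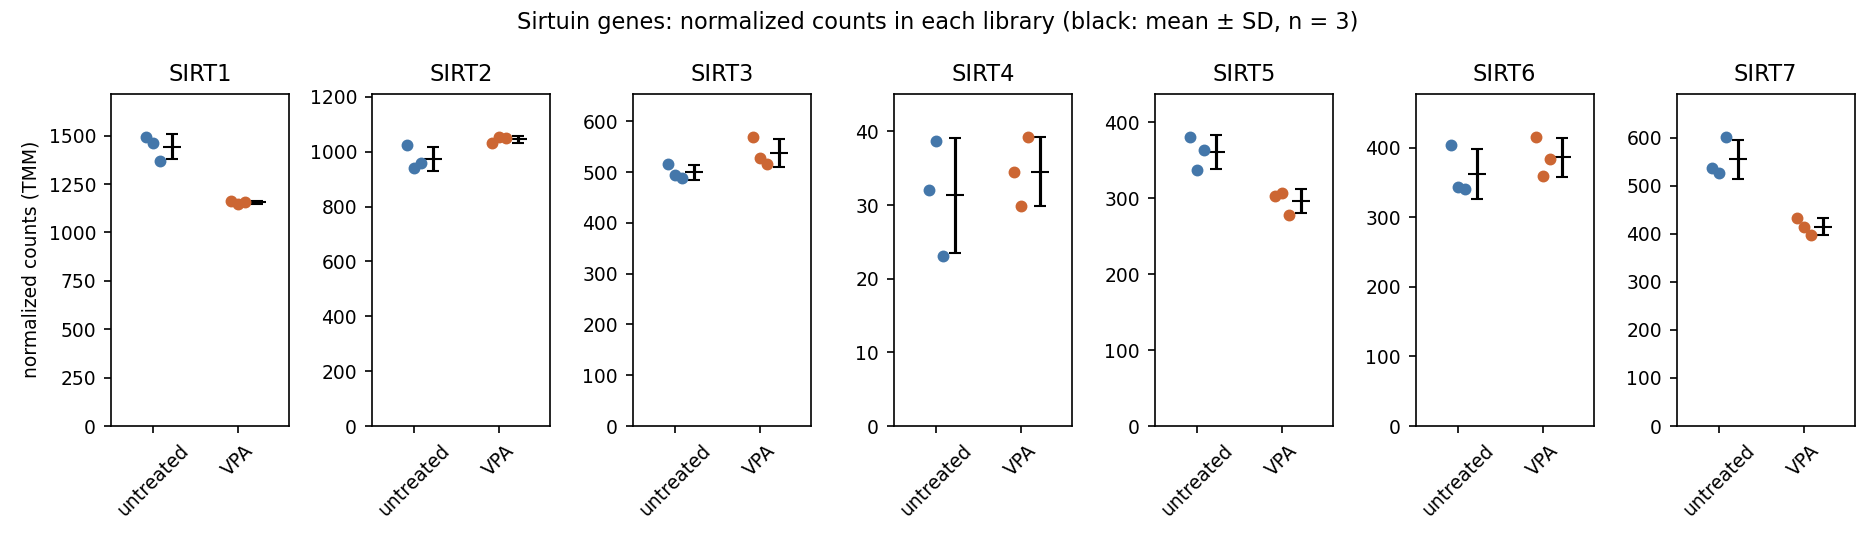
Normalized counts (TMM, vertical axis from 0) of the 7 sirtuin genes in the 3 untreated and the 3 VPA-treated libraries, with a point for each library and black bars for the mean ± SD. The VPA-treated libraries lie below all untreated libraries in SIRT1, SIRT5 and SIRT7 and above them in SIRT2, and the groups overlap in SIRT3, SIRT4 and SIRT6.

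SIRT1, the deacetylase of p53, FOXO factors and other nuclear regulators, lies on the plus strand of chromosome 10, bases 67884656 to 67918390 (ENSG00000096717.12, GRCh38, GENCODE 44). Its normalized counts were 1494, 1462 and 1371 in untreated and 1162, 1145 and 1159 in VPA-treated libraries. The groups did not overlap, and the VPA-treated libraries lay close together. The mean fell from 1442 ± 63.9 to 1156 ± 9.11 (SD, n = 3 each). Its log2 fold change was -0.32 ± 0.048 (SE; adjusted p = 5.32e-06, edgeR). As a percentage this was a change of -19.9%, with a 95% interval from -25.2% to -14.2%. The level rests on 7759 counts over the 6 libraries, the most of the family. Of its nearest genes, both on the opposite strand, DNAJC12 rose, with a log2 fold change of 0.36 (adjusted p = 0.00042, edgeR). HERC4, on the other side, was at -0.017 and did not pass (adjusted p = 0.806, edgeR).

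The 250 bases before the RefSeq start of SIRT1 (GRCh38.p14, plus strand) are shown because SIRT1 had the smallest p of the 3 decreases and no counted gene overlaps it. Capitals mark GGGCGG (GC box) and CACGTG (E-box) on either strand.
SIRT1, chr10:67884406-67884655: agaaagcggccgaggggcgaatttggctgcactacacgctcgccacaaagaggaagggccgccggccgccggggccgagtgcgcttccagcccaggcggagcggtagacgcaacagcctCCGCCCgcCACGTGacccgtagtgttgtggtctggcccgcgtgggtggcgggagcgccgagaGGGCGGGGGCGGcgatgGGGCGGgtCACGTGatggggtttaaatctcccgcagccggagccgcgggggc
This stretch holds 4 GC boxes, 2 E-boxes and 32 CpG pairs, with a GC content of 72.0%. Over 35116 RefSeq promoters of the same length 42.6% hold a GC box and 6.34% an E-box, and the median is 11 CpG pairs and 58% GC. No CCAAT (32% of all promoters), TATAAA (10.7%) or CCGGAAG (8.52%) is found in it on either strand. The matches are of letters only. RefSeq promoter entries were found for 6 of the 7 genes, all but SIRT7.

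SIRT7, the nucleolar member that is tied to transcription by RNA polymerase I, had the largest decrease of the family. It lies on the minus strand of chromosome 17, bases 81911939 to 81921323 (ENSG00000187531.14). The untreated libraries had 536, 527 and 602 normalized counts and the VPA-treated libraries 432, 414 and 396. Every VPA-treated library was below every untreated one. The mean went from 555 ± 40.8 to 414 ± 17.9 (SD, n = 3 each). Its log2 fold change was -0.42 ± 0.067 (SE; adjusted p = 1.32e-05, edgeR). This was a change of -25.3%, with a 95% interval from -32.2% to -17.7%. SIRT7 shares 105 exon bases with MAFG on the same strand, where a read cannot be given to 1 gene alone. MAFG had a log2 fold change of -0.099 (adjusted p = 0.057, edgeR), and the part of the overlap in the values of SIRT7 was not tested.

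SIRT6, a deacetylase of histone H3 at chromatin, had 404, 343 and 341 normalized counts in untreated and 416, 359 and 384 in VPA-treated libraries. The groups overlapped, and in each group replicate 1 was the highest. The log2 fold change was 0.091 with a 95% interval from -0.073 to 0.25 (adjusted p = 0.328, edgeR), that is from -4.96% to 19.3%. The gene lies on the minus strand of chromosome 19, bases 4174109 to 4182566 (ENSG00000077463.15). Its start faces that of ANKRD24, an ankyrin repeat gene on the plus strand, across 122 bases. ANKRD24 rose from 31.3 ± 7.72 to 79.3 ± 4.57 normalized counts (mean ± SD of 3 libraries each), or by 1.34 in log2 fold change (adjusted p = 7.78e-07, edgeR). On the other side, 1054 bases from the end of SIRT6, lies CREB3L3. It was at 0.349 ± 0.604 normalized counts without VPA and at 16.6 ± 1.06 with it (SD, n = 3 each). CREB3L3 passed the filter on low counts only through its VPA-treated libraries, so its values are a description. ANKRD24 thus rose past both thresholds from a low level, as 12.0% of all tested genes did upwards, while SIRT6 itself did not pass the test.

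The bases between the start of SIRT6 and that of ANKRD24 are shown because ANKRD24 rose and SIRT6 did not pass the test, and those between SIRT3 and PSMD13 because neither gene there passed the test. Both are read on the strand of the sirtuin gene (minus, GRCh38.p14), and capitals mark GC boxes and the ETS core CCGGAAG on either strand.
SIRT6 and ANKRD24, chr19:4182567-4182688: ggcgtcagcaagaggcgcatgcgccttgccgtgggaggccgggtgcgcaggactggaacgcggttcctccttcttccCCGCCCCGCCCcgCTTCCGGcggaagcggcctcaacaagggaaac
SIRT3 and PSMD13, chr11:236932-236965: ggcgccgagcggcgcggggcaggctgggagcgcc
The first stretch holds 2 GC boxes, which overlap by their last and first letter, 1 ETS core and 14 CpG pairs. The second has 6 CpG pairs and none of the 5 motifs lies wholly within its 34 bases. The RefSeq promoter of SIRT3, which takes in this stretch and reaches further, holds 1 ETS core. That match crosses the edge of the stretch and ends inside it, so its absence above depends on where the stretch was cut.

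SIRT2, which deacetylates tubulin and other proteins in the cytosol and at mitosis, had 1023, 940 and 959 normalized counts in untreated and 1030, 1054 and 1049 in VPA-treated libraries. The groups did not overlap, though VPA-treated replicate 1 was close to untreated replicate 1. The means were 974 ± 43.3 and 1044 ± 12.6 (SD, n = 3 each). Its log2 fold change, 0.10 ± 0.051 (SE), did not pass the test (adjusted p = 0.089, edgeR), and its 95% interval was -0.0046 to 0.21. Without untreated replicate 1 it was 0.13 and passed (adjusted p = 0.037, edgeR), and it also passed with upper quartile, library total and ribosomal protein scaling. The same held with the replicate number as a block in the model (adjusted p = 0.036, edgeR) and with at least 10 counts in every library (adjusted p = 0.040, edgeR). SIRT2 lies on the minus strand of chromosome 19, bases 38878555 to 38899862 (ENSG00000068903.21). It shares 40 exon bases with NFKBIB on the opposite strand, which fell with a log2 fold change of -0.23 (adjusted p = 0.0028, edgeR). As the strand setting of the counting is not known, reads from such an overlap cannot be told apart here.

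The mitochondrial members differed among themselves. SIRT5, which removes succinyl, malonyl and glutaryl groups, lies on the plus strand of chromosome 6, bases 13574227 to 13615158 (ENSG00000124523.17). Its normalized counts were 381, 337 and 364 in untreated and 303, 307 and 279 in VPA-treated libraries, without overlap between the groups. The mean fell from 361 ± 22.2 to 296 ± 15.4 (SD, n = 3 each). Its log2 fold change was -0.28 ± 0.075 (SE; adjusted p = 0.0024, edgeR). The change was -17.9%, with a 95% interval from -26.3% to -8.49%. NOL7, which starts 176 bases after SIRT5 on the same strand, also fell, with a log2 fold change of -0.18 (adjusted p = 0.0034, edgeR). GFOD1, 86564 bases away on the other side and on the opposite strand, rose, with a log2 fold change of 0.34 (adjusted p = 5.87e-05, edgeR).

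SIRT3, the main deacetylase of mitochondrial enzymes, had 517, 494 and 488 normalized counts in untreated and 569, 527 and 516 in VPA-treated libraries. Untreated replicate 1 was just above VPA-treated replicate 3, so that the groups overlapped. The log2 fold change was 0.11 with a 95% interval from -0.024 to 0.23 (adjusted p = 0.148, edgeR). SIRT3 lies on the minus strand of chromosome 11, bases 215030 to 236931 (ENSG00000142082.15) and starts 34 bases from PSMD13, a subunit gene of the proteasome on the plus strand. PSMD13 had 2913 ± 243 and 2789 ± 79.1 normalized counts (SD, n = 3 each) and a log2 fold change of -0.063 (adjusted p = 0.292, edgeR). At its other end SIRT3 shares 84 exon bases with RIC8A on the opposite strand, which fell with a log2 fold change of -0.20 (adjusted p = 0.00050, edgeR).

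SIRT4, known as an ADP-ribosyltransferase and a delipoylase, was by far the least counted member, with 198 counts over the 6 libraries. It lies on the plus strand of chromosome 12, bases 120302316 to 120313249 (ENSG00000089163.4). Its normalized counts were 32.1, 38.7 and 23.1 in untreated and 34.5, 29.9 and 39.3 in VPA-treated libraries, with full overlap. The log2 fold change of 0.14 had a 95% interval from -0.30 to 0.58 (adjusted p = 0.583, edgeR), which reaches an increase as large as the decreases of SIRT1 and SIRT7 and ends short of a decrease of that size. Without untreated replicate 3, the lowest library, its sign turned to -0.042.

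The scaling of the libraries moved all 7 values together. Over all tested genes the median was 0.0058 under TMM and -0.0081 under the size factors of DESeq2, while scaling to the upper quartile gave 0.071, to the library totals 0.14 and to ribosomal protein genes 0.28. Of all genes called, 52.3% were higher with TMM, and these other scalings gave 63.0%, 73.9% and 91.8% in the same order from the upper quartile on. Since a scaling shifts every gene by about the same amount, values relative to that median could not change, and they were -0.43 for SIRT7, -0.33 for SIRT1, -0.29 for SIRT5, 0.085 for SIRT6, 0.094 to 0.095 for SIRT2, 0.099 for SIRT3 and 0.13 to 0.14 for SIRT4. No member changed sign under these scalings. With ribosomal protein scaling SIRT7 was at -0.15, SIRT1 at -0.045 and SIRT5 at -0.010, and 0 members were lower and 3 higher, namely SIRT2, SIRT3 and SIRT6. Of all 15298 genes tested 834 were lower and 9354 higher with that scaling.

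**Figure D2:**
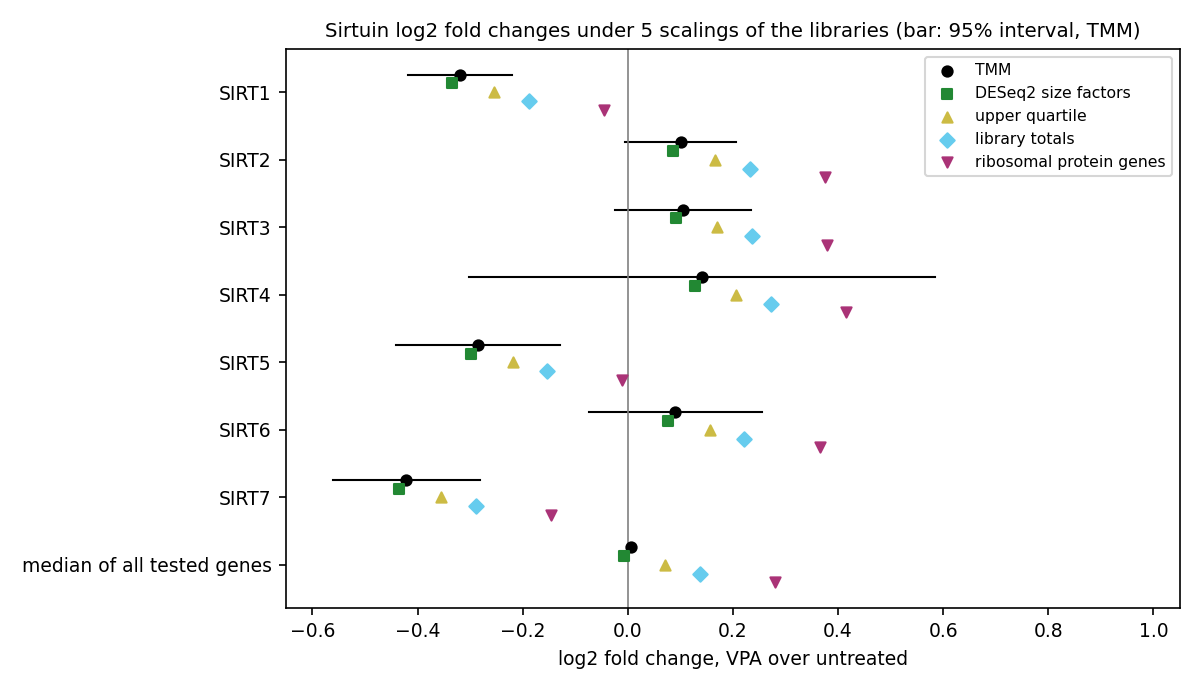
Log2 fold change (horizontal axis, VPA over untreated) of the 7 sirtuin genes and, in the bottom row, the median of all tested genes under 5 scalings of the libraries, with the 95% interval for TMM. Each gene moves by about the same amount as the median, which goes from 0.0058 with TMM to 0.28 with ribosomal protein genes. With DESeq2 size factors the move is to the left, to a median of -0.0081. SIRT1, SIRT5 and SIRT7 stay to the left of 0 under every scaling drawn.

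A ratio of 2 genes within a library does not depend on the scaling. Of the 21 pairs of members, 9 had ratios that did not overlap between the groups, against 63.8% of all pairs of tested genes counted in every library. All 9 joined SIRT1, SIRT5 or SIRT7 with SIRT2, SIRT3 or SIRT6. The ratio of SIRT1 to SIRT2 counts was 1.46, 1.56 and 1.43 in untreated and 1.13, 1.09 and 1.10 in VPA-treated libraries. That of SIRT3 to SIRT7 was 0.963, 0.938 and 0.812 against 1.32, 1.27 and 1.30, so that SIRT7 had more counts than SIRT3 in every untreated library and fewer in every VPA-treated one. Within the fallen trio the ratios overlapped, for example 3.92, 4.34 and 3.76 against 3.84, 3.73 and 4.16 for SIRT1 to SIRT5. The ratios and shares were chosen after the fold changes were seen, and each pair of 3 libraries against 3 could reach no exact permutation p below 0.1.

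As shares of all sirtuin counts in a library, SIRT1 went from 34.1% ± 1.13 to 29.9% ± 0.440, SIRT2 from 23.0% ± 0.320 to 27.0% ± 0.785 and SIRT7 from 13.1% ± 1.20 to 10.7% ± 0.301 (SD, n = 3 each). SIRT3 went from 11.8% ± 0.0905 to 13.9% ± 0.479 and SIRT6 from 8.57% ± 0.548 to 9.98% ± 0.588. The shares of counts overlapped in SIRT4, at 0.741% ± 0.189 and 0.893% ± 0.125, and in no other member. As shares of the summed CPM per kilobase, described next, those of SIRT6 overlapped too, at 13.3% ± 0.859 and 15.0% ± 0.844. Shares of a whole do not move independently of each other, and no such share was computed over all tested genes. The 3 nuclear genes together made up 55.9% ± 0.415 of the counts without VPA and 50.6% ± 0.486 with it. The mitochondrial genes made up 21.1% ± 0.0968 and 22.4% ± 0.582. The total of sirtuin counts was 3952 to 4237 in untreated and 3983 to 4119 in VPA-treated libraries and overlapped between the groups. Scaled by TMM, the sum was lower in VPA-treated libraries without overlap, at 3869 ± 68.0 against 4226 ± 139 normalized counts, and so was the sum of CPM per kilobase described next, at 85.7 ± 1.63 against 90.8 ± 3.04 (SD, n = 3 each).

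**Figure D3:**
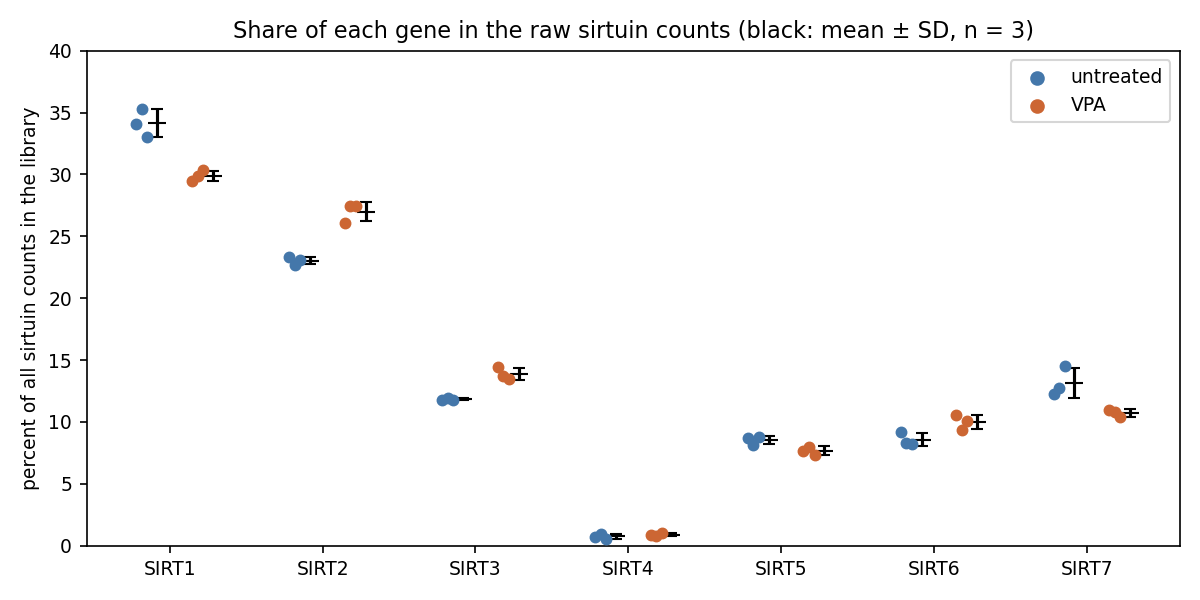
Percent of the raw sirtuin counts of a library that fell on each gene (vertical axis), with a point for each of the 3 untreated and 3 VPA-treated libraries and black bars for the mean ± SD. The share of SIRT1 goes down from 34.1% to 29.9% and that of SIRT2 goes up from 23.0% to 27.0%, and the groups overlap in SIRT4.

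To compare levels between genes, CPM values (counts scaled to a common library size, here with TMM) were divided by the length in kilobases of the MANE Select transcript, the reference transcript agreed by RefSeq and GENCODE. In untreated cells the order was SIRT2 at 27.9 ± 1.24, SIRT1 at 18.8 ± 0.830, SIRT7 at 17.2 ± 1.26, SIRT6 at 12.1 ± 1.19, SIRT3 at 9.26 ± 0.278, SIRT5 at 4.22 ± 0.260 and SIRT4 at 1.37 ± 0.344 CPM per kilobase (SD, n = 3 each). The ranges of neighbours in this order overlapped for SIRT1 and SIRT7 and for no other pair. In VPA-treated cells SIRT6 (12.9 ± 0.947) and SIRT7 (12.8 ± 0.554) overlapped, and the others kept their places, with SIRT2 at 30.0 ± 0.361 and SIRT1 at 15.0 ± 0.118. The order depends on the length used. By the union of all exons SIRT1 was the highest, with 16.9 against 8.38 for SIRT2 in untreated cells, and by the longest transcript SIRT1 was also first, with 18.8 against 12.1 for SIRT6 and 11.0 for SIRT2. SIRT4 and SIRT5 took the last 2 places by every length tried.

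**Figure D4:**
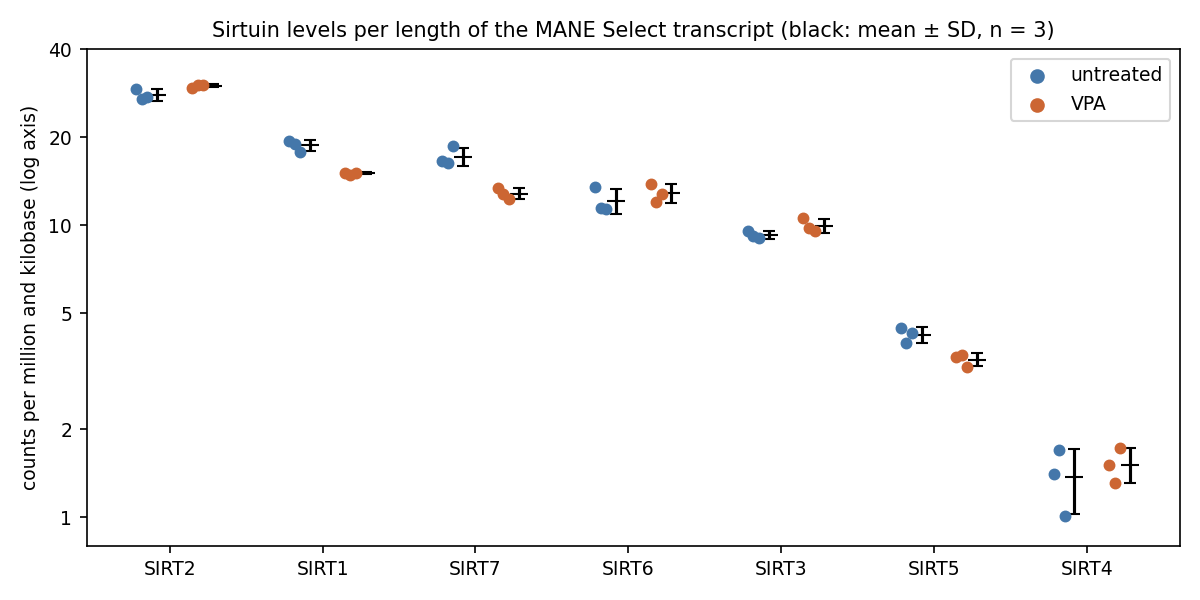
CPM per kilobase of the MANE Select transcript (vertical log axis) of the sirtuin genes in order of their untreated mean, with a point for each library and black bars for the mean ± SD, n = 3 per group. The levels run from 27.9 for SIRT2 to 1.37 for SIRT4 in untreated cells, and SIRT7 comes down to the level of SIRT6 in VPA-treated cells.

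For each of the 3 genes that passed the test, the 2 genes with the most similar pattern were sought by Pearson's r of log2 CPM over the 6 libraries. For SIRT1 these were RRP9 (r = 0.9977) and RRS1 (r = 0.9966), and 47 genes had an r over 0.99. They were ZNF142 (0.9978) and ADAT2 (0.9964) for SIRT5, with 7 genes over 0.99, and CCAR2 (0.9982) and ANKRD10 (0.9954) for SIRT7, with 14. With 6 points in 2 groups such values are a description of these libraries, and all points share the same treatment contrast.

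Genes that feed, oppose or respond to sirtuins were followed by lists, 86 genes in all, of which 81 were tested. With TMM 19 genes were higher and 43 lower, where 32.9% of all tested genes were higher and 30.0% lower. The median log2 fold change was -0.16 over the 81 genes against 0.0058 over all tested genes. Fewer genes were lower in each of the 7 lists with library totals or ribosomal protein scaling. This was so over all tested genes too, with 2372 and 834 lower in place of 4591.

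NAD synthesis genes moved both ways, with 5 of 9 tested genes higher and 3 lower, against 32.9% and 30.0% of all tested genes. The number higher was 4 with DESeq2 or at least 10 counts in every library, and 6 with ribosomal protein scaling. Leaving out 1 library also gave 4 higher genes, except for VPA-treated replicate 3, which gave 5. NMNAT2, a cytosolic adenylyltransferase that makes NAD, rose from 24.4 ± 7.90 to 407 ± 31.9 normalized counts (mean ± SD of 3 libraries each), which is 4.06 in log2 fold change (adjusted p = 6.90e-16, edgeR). QPRT, of the route from tryptophan, and NMRK1, a kinase of nicotinamide riboside, had log2 fold changes of 0.92 and 0.78 (adjusted p = 7.86e-12 and 4.23e-06, edgeR). NMRK2 was the other gene past both thresholds, from 3.48 ± 0.575 to 71.6 ± 6.98 normalized counts. It passed the filter on low counts only through its VPA-treated libraries, so its values are a description. NAMPT, the rate-limiting enzyme of NAD salvage, was lower at -0.15 (adjusted p = 0.0082, edgeR), as were NADSYN1 at -0.43 and NAPRT at -0.59. Of these 3 decreases that of NAMPT was the smallest. The number lower was 2 with upper quartile, library total or ribosomal protein scaling and without untreated replicate 3. NMRK2, NAMPT, NADSYN1 and NAPRT were named after their values were seen. Among genes of NAD transport and phosphorylation 1 of 3, the NAD kinase NADK, was lower, at -0.15, against 30.0% of all tested genes. It was not lower without untreated replicate 1, without VPA-treated replicate 3 or with upper quartile, library total or ribosomal protein scaling.

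Of 7 tested genes for other enzymes that consume NAD, 3 were lower and 1 higher, where 62.9% of all tested genes were called in either direction. PARP1, the main poly(ADP-ribose) polymerase of DNA damage, fell from 47535 ± 1546 to 38128 ± 605 normalized counts (mean ± SD of 3 libraries each), or by 0.32 in log2 fold change (adjusted p = 1.88e-06, edgeR). PARP3 was at -0.65 and SARM1, the NAD hydrolase of axons, at 0.43 (adjusted p = 4.36e-06 and 4.99e-07, edgeR). CD38 had 13 counts over the 6 libraries and was not tested.

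Of the 7 regulators of SIRT1, 5 were lower and 1 higher, against 30.0% and 32.9% of all tested genes. With library totals 2 were lower and with ribosomal protein scaling 0, where 2372 and 834 of the 15298 genes tested were lower. RPS19BP1, an activator of SIRT1 also called AROS, had a log2 fold change of -0.40, USP22, a deubiquitinase that acts on SIRT1, of -0.32, and CCAR2, its inhibitor also called DBC1, of -0.18 (adjusted p = 9.80e-06, 1.27e-06 and 0.00036, edgeR). The higher gene was HIC1, a repressor of SIRT1 transcription, which went from 29.5 ± 6.15 to 44.5 ± 4.83 normalized counts (SD, n = 3 each) and was not higher without untreated replicate 3, without VPA-treated replicate 1 or with DESeq2.

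Substrates and partners of the nuclear sirtuins were mostly lower with TMM, 16 of 19 against 30.0% of all tested genes, with a median log2 fold change of -0.28. With library totals 10 were lower and 2 higher, where 2372 of the 15298 genes tested were lower and 6713 higher. With ribosomal protein scaling it was 4 and 4, where 834 of all tested genes were lower and 9354 higher. The acetyltransferase KAT2A fell from 3978 ± 94.5 to 2191 ± 77.0 normalized counts (mean ± SD of 3 libraries each), or by 0.86 in log2 fold change (adjusted p = 1.27e-13, edgeR). UBTF, a factor of RNA polymerase I with which SIRT7 associates, was at -0.62 (adjusted p = 1.37e-11, edgeR). The member past both thresholds was PPARGC1A, the coactivator of mitochondrial genes that SIRT1 deacetylates, at 1.20 (adjusted p = 8.56e-09, edgeR), from 71.7 ± 6.41 to 165 ± 5.63 normalized counts. HIF1A and RBBP8 did not pass.

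The next list holds substrates grouped with the cytosolic sirtuin, most of them known for SIRT2 and some for SIRT1. Of its 12 tested genes 7 were lower and 3 higher, against 30.0% and 32.9% of all tested genes. With library totals 2 were lower and with ribosomal protein scaling 1, where 2372 and 834 of the 15298 genes tested were lower. The tubulin genes TUBA4A and TUBA1A were the highest, at 2.67 and 0.84, and the histone methyltransferase KMT5A the lowest, at -0.43 (adjusted p = 1.31e-16, 4.90e-09 and 6.52e-09, edgeR). The most counted tubulin gene of the list, TUBA1B, was lower, at -0.17 (adjusted p = 0.0059, edgeR), and TUBA1C was at -0.048 and did not pass, both named after their values were seen. Tubulin genes resemble each other closely, and reads that fit several were set aside, so that their counts are uncertain. The third higher gene was ACSS2, a cytosolic acetyl-CoA synthetase, at 0.42.

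Of 24 tested substrates of the mitochondrial sirtuins 8 were higher and 8 lower, close to the 32.9% and 30.0% of all tested genes, with a median of 0.080. The largest changes were in ACSS1, the mitochondrial acetyl-CoA synthetase that SIRT3 activates, at 0.71, ALDH2 at 0.40 and the isocitrate dehydrogenase IDH2 at 0.40 (adjusted p = 7.29e-10, 1.40e-07 and 3.13e-07, edgeR). With library totals 14 were higher and 4 lower, and with ribosomal protein scaling 17 and 0, where of the 15298 genes in all 6713 were higher and 2372 lower with the former and 9354 and 834 with the latter.

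The zinc-dependent deacetylases, the other deacetylase genes, had 2 of 9 tested members higher, HDAC9 at 1.58 and HDAC11 at 0.61, and 2 lower, HDAC3 at -0.26 and HDAC4 at -0.18 (adjusted p = 7.57e-07, 8.83e-07, 2.82e-05 and 0.028, edgeR), where 32.9% of all tested genes were higher and 30.0% lower. The number lower was 1 with DESeq2, upper quartile, library totals or at least 10 counts in every library, and also without untreated replicate 1, VPA-treated replicate 2 or VPA-treated replicate 3. It was 0 with ribosomal protein scaling. It was 3 with the size factors of DESeq2, without the filter on low counts, with the replicate block and without VPA-treated replicate 1. Their median log2 fold change was -0.0038 against 0.091 for the sirtuin genes, and a difference between the families was not tested. HDAC6 and HDAC8 are listed at 0 in every library and were not tested. As the annotation used for counting is not given, these zeros do not show that their RNA was absent.

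**Figure D5:**
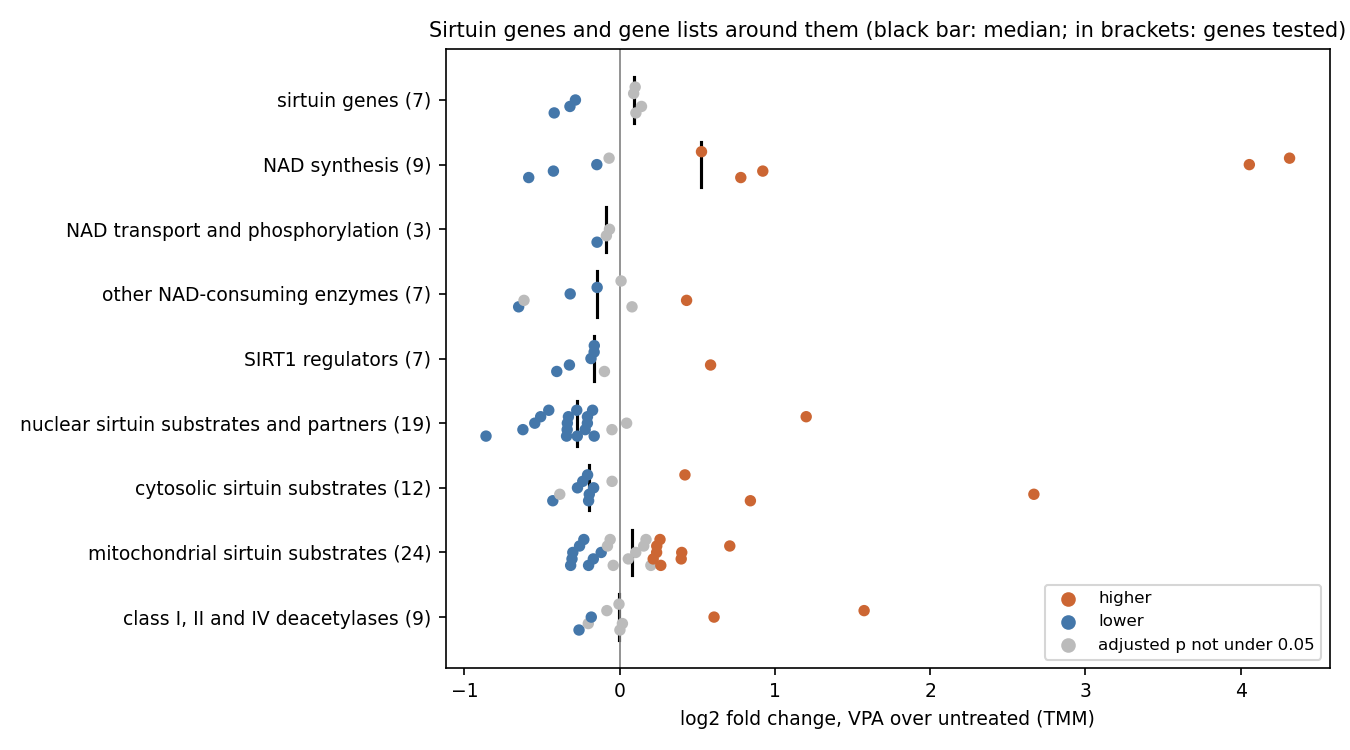
Log2 fold change (horizontal axis, TMM) of each tested gene in the sirtuin family, the 7 lists around it and the other deacetylases, in orange where higher and blue where lower at an adjusted p under 0.05 and in grey otherwise, with a black bar at the median of each list. The nuclear substrates and partners lie mostly to the left of 0, with a median of -0.28, and NAD synthesis genes reach from -0.59 to 4.32.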

How the data were processed

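RNA-seq of 3 untreated and 3 VPA-treated HEK293T libraries was used. Read cleaning by the authors used SOAPnuke, alignment to hg38 used STAR (2.7.10b in the submitters' processing notes), and HTSeq, given as 2.0.1 in those notes, counted reads per gene. The deposited values are these raw counts without normalization, with 5 summary lines, which were left out. Reads off any gene were 6.80% to 7.69% of the reads listed, ambiguous reads 1.97% to 2.10% and reads with several alignments 2.81% to 2.92%. The libraries were strand-specific, and the gene annotation and strand setting of the counting are not given in the sources used here.

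Testing used edgeR 4.0.16 under R 4.3.3, with TMM scaling, filterByExpr at a minimum of 10 counts, the robust quasi-likelihood model with condition as its term and a prior count of 0.125. Standard errors were taken as |log2 fold change| over the square root of F. The biological coefficient of variation was 3.83%. Between replicates the chi-square was 1.62 to 4.80 per gene, above sampling noise. On simulated counts of this comparison, over 15067 genes, 92 of 100 genes changed by a log2 fold change of 0.5 and 100 of 100 changed by 2 were called, with 12 of 14867 unchanged genes called. Only 200 genes, of a mean of at least 50 counts, were changed there, as many up as down, with the dispersions of the main fit. In the data 62.9% of genes were called, every sirtuin change was smaller than 0.5 and SIRT4 had a lower mean. These rates therefore do not carry over to the sirtuin results. Positions and lengths are from GENCODE 44 on GRCh38, promoters from RefSeq on GRCh38.p14. The annotation used for counting may differ.

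The members and lists were chosen with earlier results of these data known. Of each list up to 3 called genes with the largest change and a mean of at least 50 normalized counts were named, with neighbours of the members. Alternatives were DESeq2 1.42.0, other scalings, other filters, glmTreat, a replicate block and leaving out each library.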

Additional observations from a re-analysis of the deposited data

How the results depend on the processing

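Of 56 log2 fold changes of the 7 members under alternatives other than leaving out a library, 42 kept their direction and their side of the threshold, 10 came to pass it and 4 no longer passed it. With upper quartile scaling SIRT2 (0.17) and SIRT3 (0.17) passed. With library totals SIRT2 (0.23), SIRT3 (0.24) and SIRT6 (0.22) passed, and SIRT5 (-0.15) did not. With ribosomal protein scaling SIRT2 (0.38), SIRT3 (0.38) and SIRT6 (0.37) passed, and SIRT1 (-0.045), SIRT5 (-0.010) and SIRT7 (-0.15) did not. SIRT2 also passed with at least 10 counts in every library (0.12). The scaling itself moves all values, as the medians of all genes show. The number of higher sirtuin genes, 0 in the main test, was 2 by upper quartile, 3 by library totals, 3 by ribosomal protein scaling and 1 with at least 10 counts in every library, and the number of lower ones, 3, was 0 with ribosomal protein scaling. No member was past both thresholds under any alternative, glmTreat and DESeq2 included.

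Leaving out 1 library gave log2 fold changes of -0.36 to -0.30 for SIRT1, 0.068 to 0.13 for SIRT2, 0.061 to 0.13 for SIRT3, -0.042 to 0.31 for SIRT4, -0.34 to -0.24 for SIRT5, 0.034 to 0.17 for SIRT6 and -0.46 to -0.37 for SIRT7. It gave 0 to 1 higher and 3 to 3 lower members, the 1 being SIRT2 without untreated replicate 1. NAD transport and phosphorylation had 0 to 1 lower genes, with 0 without untreated replicate 1 or VPA-treated replicate 3. SIRT1 regulators had 0 to 1 higher genes, with 0 without untreated replicate 3 or VPA-treated replicate 1. The zinc-dependent deacetylases had 1 to 3 lower genes, with 1 without untreated replicate 1, VPA-treated replicate 2 or VPA-treated replicate 3.

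The lists moved with the scaling in the same way, and the counts over all tested genes given above are those to set beside them. Nuclear, cytosolic and mitochondrial substrates are here those grouped with the sirtuins of that place. With ribosomal protein scaling the higher and lower genes were 3 and 0 for NAD transport and phosphorylation, 4 and 1 for other NAD-consuming enzymes, 4 and 0 for SIRT1 regulators, 4 and 4 for nuclear, 5 and 1 for cytosolic and 17 and 0 for mitochondrial substrates, and 6 and 0 for the zinc-dependent deacetylases. With library totals there were 0 lower genes of NAD transport and phosphorylation, 3 higher other NAD-consuming enzymes, 2 lower SIRT1 regulators, 2 higher and 10 lower nuclear, 2 lower cytosolic, 14 higher and 4 lower mitochondrial substrates, and 5 higher and 1 lower zinc-dependent deacetylases. With upper quartile there were 0 lower genes of NAD transport and phosphorylation, 2 higher other NAD-consuming enzymes, 2 higher nuclear substrates and 1 lower zinc-dependent deacetylase. DESeq2 gave 0 higher SIRT1 regulators and 1 lower zinc-dependent deacetylase, and at least 10 counts in every library gave 1 lower deacetylase. For changes other than with scaling the cause was not tested.

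With the replicate block SIRT2 passed the test (0.10, adjusted p = 0.036, edgeR), so that 1 member was higher in place of 0, and no other member's call changed. The replicate block gave 5357 higher and 5100 lower genes in place of 5037 and 4591. Over 12209 genes, deviations from the group means had an r of 0.33, 0.090 and 0.24 between same-numbered libraries and of -0.26 to 0.045 between others, and every library correlated best with its own number. As the r of 0.090 was under 0.1, the main fit did not pair the libraries. The labels do not say whether they are paired. Of 42 levels per kilobase under other lengths or library totals 24 moved by more than 1 SD.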
